A study of Mus musculus with 9 samples.

Results

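The 4 mouse Fc gamma receptor genes (Fcgr1, Fcgr2b, Fcgr3 and Fcgr4) were examined in bone marrow-derived macrophages (BMDMs). Examined with them were the gene of the signaling chain shared by the activating receptors (Fcer1g) and that of the kinase recruited to it (Syk). They were taken by symbol from the deposited count table, where each symbol stands once, so 6 of 53465 genes are described. All 6 were among the 11950 genes that passed the filter on low counts.

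The BMDMs were grown from bone marrow of male wild-type C57BL/6 mice with CSF1 at 50 ng/ml, and all 3 groups share this origin. BMDMs left untreated (UNX) were compared with BMDMs given medium conditioned by pulmonary artery adventitial fibroblasts of control calves (CO-CM) or of calves with hypoxia-induced pulmonary hypertension (PH-CM), with 3 libraries in each group. The labels give the treatment time as 16 h in one protocol and 24 h in another, and the methods of the study give yet another time, so the time is not settled. By the methods of the study the fibroblasts were cultured with calf serum and the BMDMs with fetal bovine serum. No group that received unconditioned fibroblast medium is described, so against UNX the effects of fibroblast products, medium and serum cannot be told apart. The conditioned medium of bovine cells acted on mouse cells. Each kind of medium was a pool, so the 3 libraries of a group do not stand for different calves. They are described as biological triplicates, but no source used here ties them to separate mice, so p-values measure the spread between these libraries.

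Fc gamma receptors bind the constant part of IgG and let macrophages take up and respond to IgG-coated particles and immune complexes. The activating receptors encoded by Fcgr1, Fcgr3 and Fcgr4 carry no signaling motif of their own and pair with the chain encoded by Fcer1g, whose tyrosine motif (ITAM) is phosphorylated by Src family kinases and then bound by Syk. The receptor encoded by Fcgr2b carries an inhibitory motif (ITIM) in its own tail and counters this signal through phosphatases such as that encoded by Inpp5d.

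Fcgr2b, Fcgr4, Fcgr3 and Fcer1g lie in one stretch of 275.7 kb on chromosome 1, whereas Fcgr1 is on chromosome 3 and Syk on chromosome 13. The 4 receptor promoters are shown because the genes rose to different degrees, and because promoters of this family are known to be read by the myeloid factor PU.1 and by STAT proteins. Each run is the RefSeq window (GRCm38.p6) from 250 bases before the start of transcription to 50 bases after it, written 5′ to 3′ along the gene. Capitals mark matches to the STAT-type GAS motif TTCNNNGAA or to the PU.1 core GAGGAA on either strand, which reads TTCCTC on the other strand. The windows are chr3:96293920-96294219 (minus strand) for Fcgr1, chr1:170976022-170976321 (minus) for Fcgr2b, chr1:171059354-171059653 (minus) for Fcgr3 and chr1:171018676-171018975 (plus) for Fcgr4.
Fcgr1: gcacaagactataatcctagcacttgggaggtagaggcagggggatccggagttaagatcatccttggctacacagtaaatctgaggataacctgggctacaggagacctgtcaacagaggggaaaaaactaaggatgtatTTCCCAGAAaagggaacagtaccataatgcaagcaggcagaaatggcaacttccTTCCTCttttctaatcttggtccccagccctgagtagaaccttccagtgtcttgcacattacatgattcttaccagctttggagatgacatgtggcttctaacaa
Fcgr2b: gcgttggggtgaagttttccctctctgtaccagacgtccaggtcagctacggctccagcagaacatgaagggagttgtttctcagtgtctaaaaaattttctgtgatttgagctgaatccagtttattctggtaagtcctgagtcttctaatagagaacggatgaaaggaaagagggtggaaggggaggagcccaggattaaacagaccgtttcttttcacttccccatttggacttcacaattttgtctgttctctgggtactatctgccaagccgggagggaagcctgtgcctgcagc
Fcgr3: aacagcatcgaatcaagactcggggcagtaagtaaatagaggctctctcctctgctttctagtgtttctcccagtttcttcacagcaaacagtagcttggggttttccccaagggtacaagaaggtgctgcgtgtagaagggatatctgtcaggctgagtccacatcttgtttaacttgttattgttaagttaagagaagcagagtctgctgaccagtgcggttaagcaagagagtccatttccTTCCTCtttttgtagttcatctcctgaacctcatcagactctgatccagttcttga
Fcgr4: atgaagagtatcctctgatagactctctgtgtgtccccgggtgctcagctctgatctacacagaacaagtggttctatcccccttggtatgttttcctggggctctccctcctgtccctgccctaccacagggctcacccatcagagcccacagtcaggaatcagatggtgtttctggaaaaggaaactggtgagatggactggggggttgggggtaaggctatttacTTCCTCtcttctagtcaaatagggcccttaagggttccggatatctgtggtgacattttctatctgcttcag

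Fcgr1 was the single receptor with a GAS match, 109 to 101 bases before its start, and it also held a PU.1 core 55 to 50 bases before it. Fcgr4 held a PU.1 core 22 to 17 bases before its start. Fcgr3 held one at 6 to 1 bases before the start shown, and the other RefSeq start of Fcgr3 has the same match at 15 to 10 bases before it. The windows of Fcgr2b and Fcgr3 lie within the annotated gene spans, whose outermost starts are farther upstream. The window of Fcgr2b held neither set of letters, which says only that they are not in these 300 bases. Of all 32851 mouse windows, 8.30% held the GAS letters and 28.3% the PU.1 core, so a PU.1 core match is common and a GAS match less so. The window of Fcer1g held neither motif, and of the 2 windows of Syk the second held a PU.1 core 9 to 4 bases before its start.

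Reads per gene, scaled by TMM factors to the counted reads of each library (counts per 1000000 reads, CPM), were higher in PH-CM than in UNX for 5 of the 6 genes, and CO-CM raised 2 of 6. Calls needed both an FDR of at most 0.05 in an edgeR fit over all genes tested and a fold change of at least 1.2. PH-CM against CO-CM again gave 5 of 6 called higher, and Fcer1g was the one gene not called in any comparison. Calls were frequent across the transcriptome. In PH-CM against UNX 63.0% of all genes tested were called, 31.3% higher and 31.7% lower. For CO-CM against UNX this was 57.0%, 28.0% higher and 28.9% lower. For PH-CM against CO-CM it was 27.1%, 12.2% higher and 15.0% lower. The median log2 fold change of the 6 genes was 1.07 in PH-CM against UNX, 0.27 in CO-CM against UNX and 0.60 in PH-CM against CO-CM, beside 0.01, 0.00 and -0.01 over all genes tested. In bulk RNA, more RNA per cell and more cells of a kind cannot be told apart.

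Replicate 1 stood apart from the other libraries of its group. The chi-square per gene of replicate 1 against replicates 2 and 3 was 57.1 and 40.4 in UNX, 44.9 and 48.0 in CO-CM and 29.5 and 21.6 in PH-CM, beside 13.4, 17.5 and 10.6 between replicates 2 and 3. In each group, replicate 1 had the lowest CPM for Fcgr1, Fcgr2b, Fcgr3, Fcgr4 and Fcer1g. For Syk this held in UNX alone (321 in replicate 1, beside 366 and 344). Without replicate 1 of all 3 groups, an alternative chosen after seeing the data, the calls were 5 of 6 in PH-CM against UNX, 3 of 6 in CO-CM against UNX and 5 of 6 in PH-CM against CO-CM. The added call was Fcgr4 in CO-CM against UNX. The log2 fold changes of PH-CM against UNX were then 2.15 for Fcgr4, 1.66 for Fcgr2b, 0.89 for Fcgr3, 0.50 for Fcgr1, -0.11 for Fcer1g and 1.13 for Syk.

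**Figure D1:**
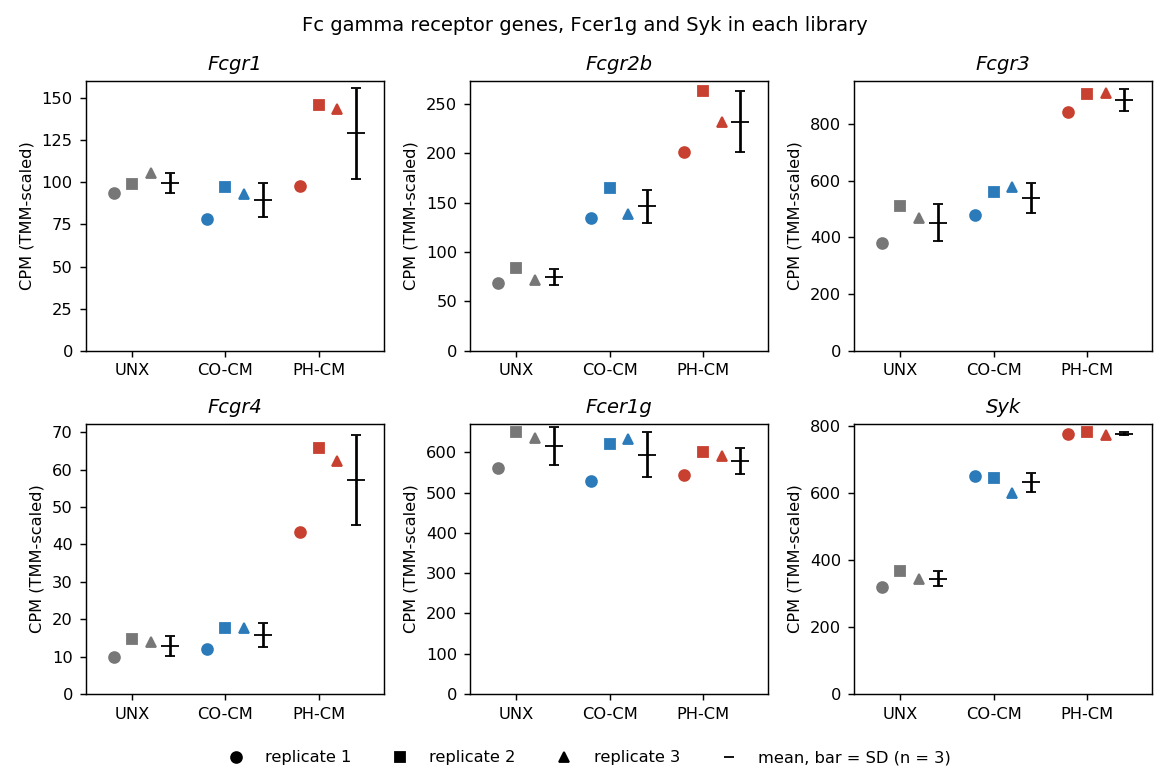
Level of each gene in each of the 9 libraries, as TMM-scaled CPM (y axis from 0), by group (x axis), with the mean and SD of 3 libraries beside the points. The 3 PH-CM libraries lie above all UNX libraries for Fcgr2b, Fcgr3, Fcgr4 and Syk, and overlap them for Fcgr1 and Fcer1g.

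Fcgr4 showed the largest rise of the 6 genes in PH-CM. It encodes an activating receptor for IgG2 subclasses (chr1:171018920-171029761, plus strand, 5 merged exons, GRCm38). Its CPM was 9.75, 14.8 and 14.0 in UNX replicates 1, 2 and 3, 12.1, 17.6 and 17.7 in CO-CM, and 43.4, 65.8 and 62.3 in PH-CM. All PH-CM libraries were above every other library, while CO-CM and UNX overlapped. These values rest on 632 to 4085 counted reads per library, the fewest of the 6 genes. PH-CM was higher than UNX by 2.15 on the log2 scale (SE 0.21, 4.44-fold, edgeR FDR = 4.60e-06) and higher than CO-CM by 1.86 (SE 0.20, 3.62-fold, edgeR FDR = 6.41e-05). CO-CM against UNX gave 0.29 (SE 0.20, 95% CI -0.16 to 0.75, edgeR FDR = 0.224) and was not called. With the replicate number as a block that last difference was called (0.30, SE 0.045, edgeR FDR = 0.00012), and CO-CM exceeded UNX by 0.30, 0.25 and 0.34 in replicates 1, 2 and 3. It was also called without replicate 1 of all groups (0.28, edgeR FDR = 0.00404). With single libraries left out it ranged from 0.117 without UNX replicate 1 to 0.454 without CO-CM replicate 1, not called in either. PH-CM exceeded UNX by 2.15 in each of the 3 replicate numbers.

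Fcgr2b, the inhibitory receptor gene, was called in all 3 comparisons (chr1:170958617-170976547, minus strand, 10 merged exons). Its CPM was 68.3, 84.2 and 72.0 in UNX, 135, 165 and 139 in CO-CM, and 201, 263 and 232 in PH-CM. The 3 groups formed 3 separate steps with no overlap. PH-CM was above UNX by 1.63 (SE 0.12, 3.10-fold, edgeR FDR = 4.61e-07) and CO-CM by 0.96 (SE 0.11, 1.95-fold, edgeR FDR = 2.81e-05). PH-CM was above CO-CM by 0.67 (SE 0.11, 1.59-fold, edgeR FDR = 0.00104).

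Fcgr3 encodes the low-affinity activating receptor (chr1:171051174-171064935, minus strand, 7 merged exons). Its CPM was 382, 510 and 467 in UNX, 481, 562 and 579 in CO-CM, and 842, 906 and 912 in PH-CM. PH-CM stood apart from both other groups, which overlapped each other. PH-CM was above UNX by 0.97 (SE 0.10, 1.96-fold, edgeR FDR = 1.05e-05) and above CO-CM by 0.71 (SE 0.10, 1.64-fold, edgeR FDR = 0.000389). CO-CM against UNX gave 0.26 (SE 0.10, 95% CI 0.03 to 0.48, edgeR FDR = 0.0460), and at 1.19-fold it fell short of the fold threshold of 1.2. It was called without UNX replicate 2 (0.33, edgeR FDR = 0.0171), without CO-CM replicate 1 (0.33, edgeR FDR = 0.0152) and with upper-quartile factors (0.32, edgeR FDR = 0.0196). The FDR was above 0.05 in other alternatives, among them without UNX replicate 1 (0.13, edgeR FDR = 0.193), without CO-CM replicate 3 (0.20, edgeR FDR = 0.144) and with library size alone as the scaling (0.19, edgeR FDR = 0.0924). With the replicate number as a block it was 0.26 (edgeR FDR = 0.000912), and without replicate 1 of all groups 0.21 (edgeR FDR = 0.00485). Both fell short of the fold threshold. CO-CM exceeded UNX by 0.33, 0.14 and 0.31 in replicates 1, 2 and 3.

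Fcgr1 encodes the high-affinity receptor, which can bind single IgG molecules (chr3:96282909-96293969, minus strand, 6 merged exons). Its CPM was 93.9, 99.0 and 106 in UNX, 78.3, 97.3 and 93.0 in CO-CM, and 97.7, 146 and 143 in PH-CM. PH-CM replicate 1 lay within the UNX range and the other two PH-CM libraries lay above it, while every PH-CM library was above the highest CO-CM library, replicate 1 by a small margin. PH-CM was above UNX by 0.38 (SE 0.14, 1.30-fold, edgeR FDR = 0.0293) and above CO-CM by 0.53 (SE 0.14, 1.44-fold, edgeR FDR = 0.0124). CO-CM against UNX gave -0.15 (SE 0.14, 95% CI -0.46 to 0.15, edgeR FDR = 0.345) and was not called. In the fit without a block, single libraries decided these calls. The call against UNX was lost when UNX replicate 1 was left out (edgeR FDR = 0.0868), and likewise for UNX replicate 2 (0.0719) and for replicates 2 (0.114) and 3 (0.106) of PH-CM. The call against CO-CM was lost without replicate 2 (edgeR FDR = 0.0537) or replicate 3 (0.0518) of PH-CM. Between libraries of the same number, PH-CM exceeded UNX by 0.06, 0.56 and 0.44 on the log2 scale. With the replicate number as a block, PH-CM was above UNX by 0.36 (edgeR FDR = 0.00111) and above CO-CM by 0.52 (edgeR FDR = 0.000212). Without replicate 1 of all groups, PH-CM was above UNX by 0.50 (edgeR FDR = 2.01e-05).

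Fcer1g, the chain that the activating receptors need for assembly and signaling, was not called in any comparison (chr1:171229572-171234365, minus strand, 5 merged exons). Its CPM was 561, 650 and 635 in UNX, 530, 620 and 632 in CO-CM, and 543, 601 and 592 in PH-CM. The 3 groups overlapped. PH-CM against UNX gave -0.09 (95% CI -0.27 to 0.09, edgeR FDR = 0.337), CO-CM against UNX -0.05 (-0.23 to 0.13, FDR = 0.587) and PH-CM against CO-CM -0.04 (-0.22 to 0.14, FDR = 0.750). With the replicate number as a block PH-CM against UNX gave -0.09 (SE 0.035, edgeR FDR = 0.0388), and PH-CM was lower in 3 of 3 same-numbered pairs (-0.05, -0.11 and -0.10). Without replicate 1 of all groups it gave -0.11 (edgeR FDR = 0.0305). Both fell short of the fold threshold of 1.2.

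Syk, the tyrosine kinase that binds the phosphorylated chain through its SH2 domains, was called in all 3 comparisons (chr13:52583173-52648792, plus strand, 14 merged exons). Its CPM was 321, 366 and 344 in UNX, 650, 646 and 599 in CO-CM, and 777, 783 and 774 in PH-CM. The groups did not overlap, and the PH-CM libraries lay closest together. PH-CM was above UNX by 1.18 (SE 0.058, 2.26-fold, edgeR FDR = 3.13e-08) and CO-CM by 0.88 (SE 0.057, 1.84-fold, edgeR FDR = 3.84e-07). PH-CM was above CO-CM by 0.30 (SE 0.057, 1.23-fold, edgeR FDR = 0.00211).

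**Figure D2:**
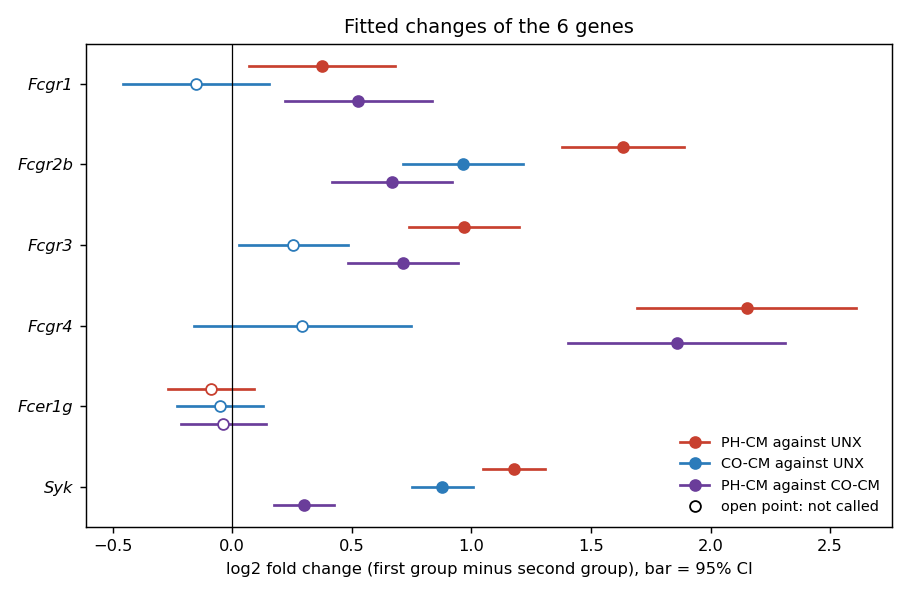
Fitted log2 fold change of each gene (x axis, first group minus second group) with its 95% confidence interval in 3 comparisons, where filled points were called and open points were not. Fcgr4 moved farthest in PH-CM against UNX (2.15), Syk and Fcgr2b were called in all 3 comparisons, and the 3 intervals of Fcer1g all include 0.

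Fcgr2b and Syk were thus higher in CO-CM and higher again in PH-CM. Fcgr4 rose in PH-CM, and whether its 0.29 (log2) in CO-CM was called depended on the fit. Between PH-CM and UNX the CPM of 9285 genes (77.7% of those tested) did not overlap, between CO-CM and UNX that of 8609 (72.0%), and between PH-CM and CO-CM that of 5999 (50.2%), so separate groups were common in these libraries.

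Levels were compared between genes on the RPKM scale, which divides by exon length (means ± SD, n = 3). RPKM, unlike the CPM above, is not scaled by TMM factors, so its changes between groups are not quite those in CPM. Fcer1g had the highest RPKM of the 6 in every group, at 724 ± 46.9 in UNX, 665 ± 51.7 in CO-CM and 654 ± 26.5 in PH-CM, and ranked 31 of the 11950 genes tested in UNX. Fcgr3 followed at 268 ± 35.6, 305 ± 24.7 and 505 ± 15.2, which placed it at rank 142 in UNX and 59 in PH-CM. The other receptors had lower RPKM. Fcgr1 stood at 39.5 ± 1.86, 33.8 ± 3.16 and 49.2 ± 9.77 RPKM. Fcgr2b stood at 13.3 ± 1.37, 24.7 ± 2.39 and 39.6 ± 4.81, and Fcgr4 at 10.5 ± 2.09, 12.3 ± 2.31 and 44.9 ± 8.89. Syk, the kinase, stood at 37.7 ± 2.09, 66.1 ± 3.59 and 82.1 ± 1.10.

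The order of these levels differed between groups. In UNX it was Fcer1g, Fcgr3, Fcgr1, Syk, Fcgr2b and Fcgr4, and the ranges of Fcgr1 and Syk overlapped. In CO-CM Syk was above Fcgr1 and no neighbors overlapped. In PH-CM Fcgr4 came before Fcgr2b, and the ranges of Fcgr1 and Fcgr4 and those of Fcgr4 and Fcgr2b overlapped. Fcgr4 moved from rank 4497 of 11950 in UNX to 3655 in CO-CM and 1050 in PH-CM, whereas Fcer1g moved from 31 to 39 and 42. The median RPKM of the genes tested was 6.69, 5.90 and 5.93.

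The summed RPKM of the 4 receptors was 331 ± 39.6 in UNX, 376 ± 30.7 in CO-CM and 638 ± 37.6 in PH-CM. Fcgr3 made up 80.8 ± 1.12% of this sum in UNX, 81.2 ± 0.867% in CO-CM and 79.2 ± 2.47% in PH-CM. The share of Fcgr1 was 12.0 ± 1.26%, 9.01 ± 0.263% and 7.66 ± 1.12%. Fcgr4 held 3.15 ± 0.286%, 3.25 ± 0.367% and 6.99 ± 1.02%, and its share in each PH-CM library exceeded that in every other library. The inhibitory Fcgr2b held 4.02 ± 0.277%, 6.59 ± 0.621% and 6.19 ± 0.468%.

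The activating receptors together had 22.4 to 25.8 times the RPKM of Fcgr2b in UNX libraries, 13.2 to 16.0 times in CO-CM and 13.9 to 16.1 times in PH-CM. This ratio was lower under both media, and the ranges of the 2 media overlapped. The ratio of activating receptors to Fcer1g was 0.411 to 0.462 in UNX, 0.523 to 0.530 in CO-CM and 0.898 to 0.931 in PH-CM, in 3 ranges that did not overlap. The ratio of Fcgr1 to Fcgr4 was 3.86 ± 0.732 in UNX, 2.80 ± 0.313 in CO-CM and 1.10 ± 0.0198 in PH-CM. These are ratios of RNA and say nothing of protein at the surface.

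**Figure D3:**
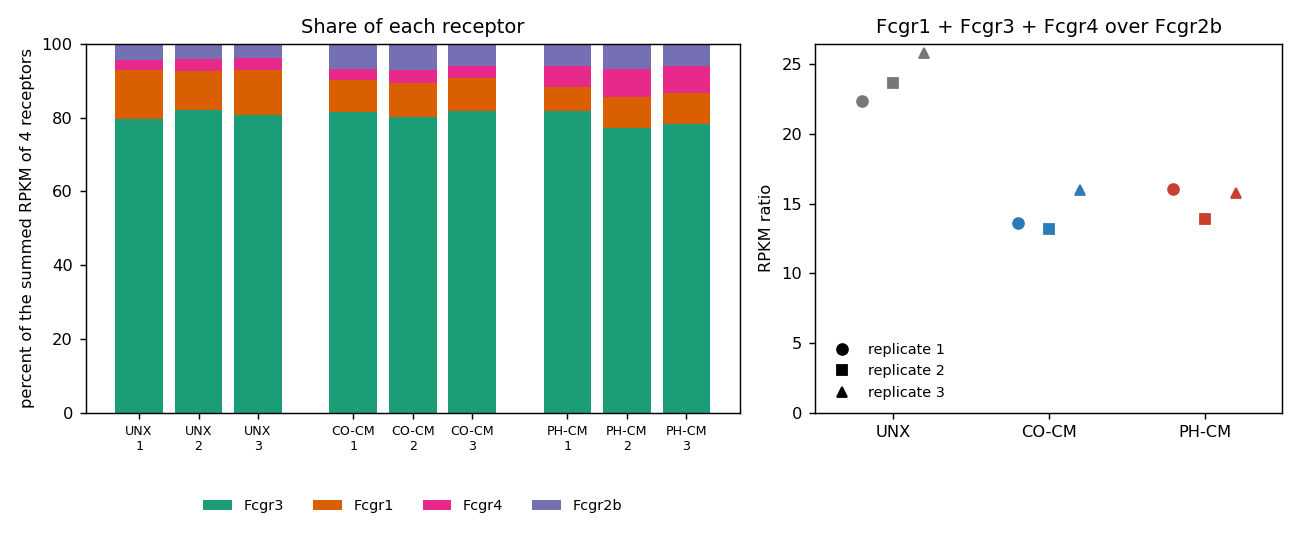
Left, the percent of the summed RPKM of the 4 receptors taken by each receptor in each library (bars stacked from 0 to 100). Right, the RPKM of Fcgr1, Fcgr3 and Fcgr4 together over that of Fcgr2b in each library, which lies between 22.4 and 25.8 in UNX and between 13.2 and 16.1 in the other two groups.

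The stretch of chromosome 1 from Fcgr2b to Fcer1g holds 17 annotated genes, 11 of them protein-coding, and 8 were tested, the 4 family members among them. Fcgr2b, Fcgr4 and Fcgr3 lie side by side at one end and all 3 rose in PH-CM against UNX, while Fcer1g lies at the other end. Among the other 4 tested genes 3 fell, with log2 fold changes of -2.14 for Pcp4l1, -0.58 for Tomm40l and -0.45 for Sdhc. Cfap126, next to Fcgr3, gave 0.48 and was not called (edgeR FDR = 0.104). Over all genes tested 31.3% were called higher and 31.7% lower in PH-CM against UNX. Whether position in this stretch plays a part was not tested.

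**Figure D4:**
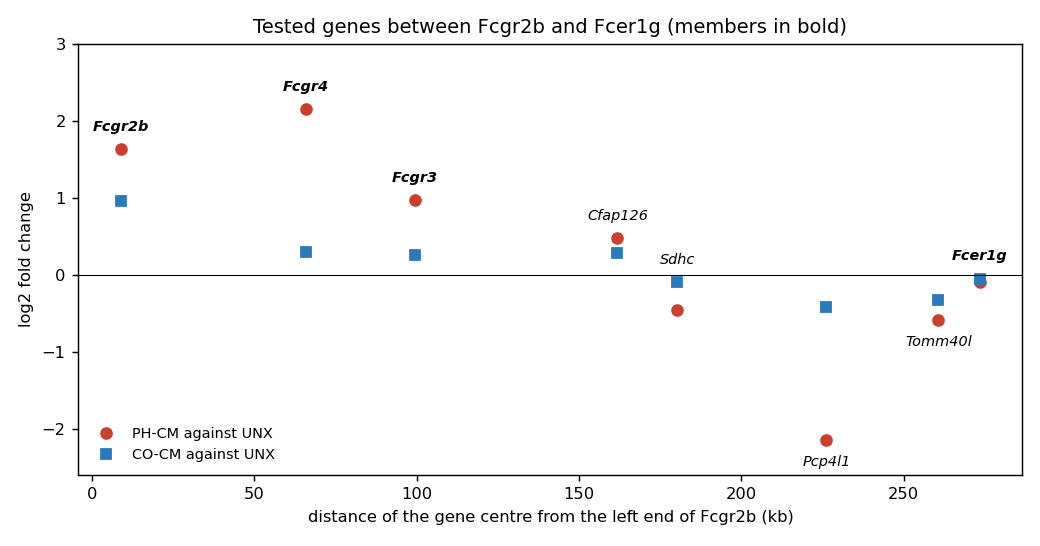
Fitted log2 fold change (y axis) of the 8 tested genes between Fcgr2b and Fcer1g against the distance of each gene's center from the left end of Fcgr2b in kb (x axis), with circles for PH-CM and squares for CO-CM, both against UNX. Fcgr2b, Fcgr4 and Fcgr3 stand at 1.63, 2.15 and 0.97 in PH-CM, Pcp4l1 stands at -2.14 and Fcer1g at -0.09.

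Fcgr2b and Fcgr3 encode similar binding domains, so reads could fit both. Of the distinct 50-base runs in annotated transcripts, 166 were common to both, 2.92% of those of Fcgr2b and 9.58% of those of Fcgr3. Fcgr2b shared 395 runs of 50 bases (6.95%) with any annotated gene, Fcgr3 included. At 100 bases 44 runs were common (0.753% and 2.54%), and at 150 bases, the length of a read, none were. With any annotated gene Fcgr2b still shared 251 runs of 100 bases (4.30%) and 114 of 150 bases (1.92%). Fcgr1, Fcgr4, Fcer1g and Syk shared no 50-base run with another annotated gene. Fcgr2b also overlaps the antisense gene Gm38204 over 155 exon bases (2.68% of its exons), which had 0 to 12 counted reads per library beside at least 4425 for Fcgr2b. The counting did not use strand. Mir6546 inside Fcgr3 and Gm26110 inside Fcgr4 share no exon bases with them.

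Among 8571 genes with a mean CPM of at least 10, the genes most like each member over the 9 libraries were found by Pearson r of log2 CPM. All libraries share 1 scaling, and with 3 groups any gene that follows the groups scores high. For Fcgr4 the highest were Hilpda, a lipid droplet protein gene (r = 0.995), Rtf2 (0.993) and Ugdh (0.991), and Hilpda had a mean CPM of 10.7 in UNX, 11.8 in CO-CM and 80.1 in PH-CM. For Fcgr2b they were Prdx5, which encodes a peroxiredoxin (0.997), Atg4c (0.997) and Bscl2 (0.995), and for Fcgr3 Ubtd1 (0.996), Thap6 (0.994) and Tob1 (0.988). For Syk they were Ulk1, the kinase that starts autophagy (0.998), Wdtc1 (0.997) and the autophagy receptor Nbr1 (0.997), with 830 genes above 0.95. Fcgr1 and Fcer1g had fewer close matches. The highest were Pcif1 (0.939), Gas2l1 (0.933) and Kctd12 (0.929) for Fcgr1, and Tmem173 (0.960), Calm2 (0.952) and Vill (0.944) for Fcer1g.

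Genes around the receptors were counted in 8 lists, of which 113 genes were tested. In PH-CM against UNX 73 were called (64.6%), 43 higher and 30 lower, beside 63.0% of all genes. For CO-CM against UNX 64 were called (56.6%), 40 higher and 24 lower, beside 57.0%. For PH-CM against CO-CM 45 were called (39.8%), 24 higher and 21 lower, beside 27.1%.

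Other receptors that pair with Fcer1g rose with PH-CM. Of 9 such genes 5 were tested, and all 5 were called higher in PH-CM against UNX, with a median of 1.56 on the log2 scale. Clec4n, which encodes the fungal receptor Dectin-2, rose from a mean CPM of 3.81 in UNX to 65.0 in PH-CM (4.10, SE 0.14, edgeR FDR = 2.37e-09). Clec4d, which encodes a related C-type lectin, rose by 2.03 (SE 0.086, edgeR FDR = 1.18e-08). In CO-CM against UNX 4 of the 5 were called higher, with Clec4n at 0.97 and Pira2, an activating Ig-like receptor gene, at 0.52. In PH-CM against CO-CM 3 were called higher, Clec4n by 3.13 and Clec4d by 1.55, and the median was 1.51. In all 3 comparisons Fcer1g itself was not called.

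Of 12 genes of other Fc receptors and Fc receptor-like proteins 4 were tested. Fcgrt, which encodes the neonatal Fc receptor that recycles IgG, rose by 1.91 in PH-CM (SE 0.11, edgeR FDR = 8.17e-08) and by 1.35 in CO-CM, and PH-CM exceeded CO-CM by 0.57. Trim21, the cytosolic antibody receptor gene, fell under both media (-0.61 in PH-CM and -0.59 in CO-CM). Fcrl1, an Fc receptor-like gene, fell in PH-CM (-2.13 against UNX and -2.08 against CO-CM), from a mean CPM of 4.55 in UNX and 4.38 in CO-CM to 1.04.

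Among other signaling adaptors and the Syk paralog 2 of 8 were tested and both rose under either medium. Tyrobp, which encodes the ITAM adaptor DAP12, rose by 0.55 in PH-CM and 0.66 in CO-CM. Hcst, which encodes DAP10, an adaptor with a PI3-kinase motif and no ITAM, rose by 0.77 and 0.73. Neither was called between the media (-0.11 and 0.04). Zap70, the paralog of Syk used by T cells, was not tested, with a mean CPM of at most 0.160 in any group.

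The Src family kinases that phosphorylate the ITAM moved in both directions. PH-CM against UNX gave 2 increases among the 5 tested, Fgr at 1.86 and Src at 1.46, and 1 decrease, Fyn at -0.99. CO-CM against UNX gave 2.18 for Fgr, 0.90 for Src, -0.84 for Lyn and -0.70 for Fyn, all called. Between the media Lyn was higher in PH-CM (0.60) and Fyn lower (-0.29). Fgr and Src were scarce, with a mean CPM of 1.78 and 1.63 in UNX.

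Adaptors and effectors after Syk were mixed. In PH-CM against UNX 10 of 32 rose and 5 fell, with a median of 0.03. Prkce, a protein kinase C gene, rose by 0.92 and the scaffold gene Gab2 by 0.71, while the PI3-kinase subunit genes Pik3cb and Pik3cg fell (-1.09 and -0.85). With CO-CM 11 rose and 7 fell, with the adaptor gene Blnk at 0.73 and the PI3-kinase regulator Pik3r5 at 0.72, and with Lcp2, which encodes the adaptor SLP-76, at -1.02 and Pik3cg at -0.87. Between the media 6 were higher in PH-CM, led by Prkce (0.98) and Vav3 (0.80), an exchange factor gene, and 6 lower, Pik3cb among them (-0.61).

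Genes that inhibit Fc receptor signaling also moved both ways. Of 18 tested, 7 rose and 5 fell in PH-CM against UNX. The ITIM receptor genes Cd300a and Pirb rose by 1.54 and 0.85, while the adaptor gene Dok2 fell (-2.32), as did the phosphatase gene Ubash3b (-2.13). With CO-CM 6 rose and 2 fell, with Cd300a at 1.39, Pirb at 0.92, Dok2 at -2.51 and Ubash3b at -1.21. Between the media 3 were higher in PH-CM and 4 lower. Inpp5d, which encodes the phosphatase SHIP1 recruited by the Fcgr2b product, was higher by 0.52 (SE 0.082, edgeR FDR = 0.000676), while the ITIM lectin gene Clec12a was lower (-1.82), as was Ubash3b (-0.92).

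Of 36 tested genes of actin and membrane remodeling in phagocytosis, 15 fell and 9 rose in PH-CM against UNX, with a median of -0.22. Pla2g4a, a phospholipase gene, fell (-2.62), as did Myo1e, an unconventional myosin gene (-1.34), whereas Sphk1 rose by 1.68 and Marcks by 0.85. CO-CM raised 8 and lowered 10, with Myo1f at 0.89, Sphk1 at 0.86, Pla2g4a at -2.48 and Marcksl1 at -1.81. Between the media 7 were higher in PH-CM and 6 lower, with Marcksl1 at 1.56, Arpc3 of the actin-nucleating complex at 0.89, Myo1e at -1.68 and Myo10 at -1.02.

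Of 11 transcription factor genes linked to Fc receptor genes, 7 rose and 2 fell in PH-CM against UNX. Cebpb rose by 1.87 (SE 0.11, edgeR FDR = 1.42e-07) and Cebpa by 1.26, both genes of C/EBP factors, while Mitf fell (-0.36). With CO-CM 6 rose and 2 fell, with Cebpa at 1.90, Irf8 at 0.71 and Tfec at -0.32. Between the media 3 were higher in PH-CM and 3 lower, with Cebpb at 1.6, Tfec at 0.60, Mitf at -0.79 and Cebpa at -0.65. Spi1, which encodes PU.1 and was picked after its values were seen, had a mean CPM of 306 in UNX, 348 in CO-CM and 371 in PH-CM.

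**Figure D5:**
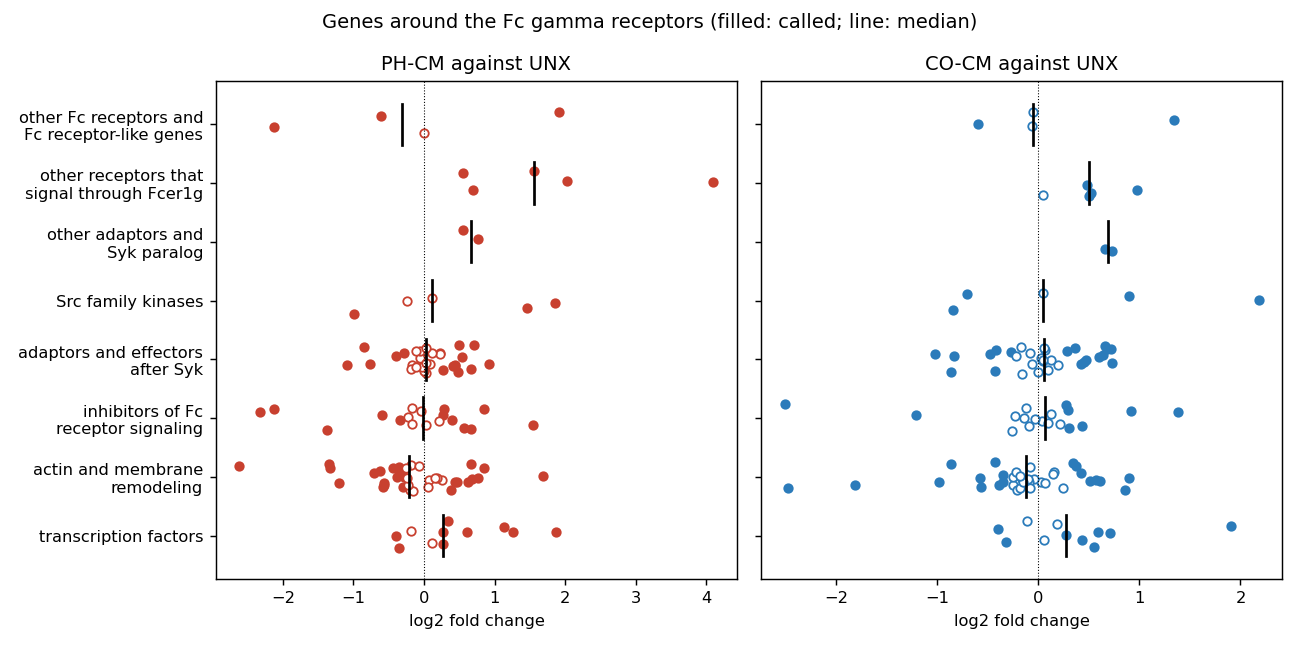
Fitted log2 fold change (x axis) of each tested gene in 8 lists of genes around the Fc gamma receptors (y axis), in PH-CM against UNX (left) and CO-CM against UNX (right), with filled points for called genes and a line at the median of each list. All 5 tested receptors that pair with Fcer1g lie above 0 on the left, with a median of 1.56, and the other lists except the other adaptors hold genes on both sides of 0.

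The macrophage label was checked against 8 markers, and all 8 were tested, with a summed CPM of 12627 to 13559 in UNX, 19101 to 20041 in CO-CM and 21956 to 23701 in PH-CM. Of the 8, 6 were called higher and 1 lower in PH-CM against UNX, and 5 higher and 2 lower in CO-CM against UNX. Fc gamma receptors are also expressed by other leukocytes, whose markers had low levels. No marker of B cells, T cells, NK cells or dendritic cells (5 genes each) passed the filter, and their summed CPM was at most 1.02 in any library. Of 8 neutrophil markers 1 passed, S100a8, which was called higher in PH-CM (1.37) and CO-CM (1.39) against UNX. The summed CPM of the neutrophil markers was 1.77 to 2.75 in UNX, 3.01 to 4.32 in CO-CM and 2.59 to 3.70 in PH-CM, and Ly6g was the defining marker at 0 in all libraries. Of 6 mast cell and basophil markers 1 passed, Kit, with a mean CPM of 2.62 in UNX, 1.95 in CO-CM and 0.291 in PH-CM, while the defining genes Fcer1a and Ms4a2 were at 0 in all libraries. Of 6 fibroblast markers 5 passed, with a summed CPM of 194 to 245 in UNX, 262 to 314 in CO-CM and 244 to 331 in PH-CM, and 4 of them were called higher in PH-CM against UNX. Their part in the results above was not tested.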

How the data were processed

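RNA-Seq from 9 libraries of mouse BMDMs, 3 in each of 3 groups, was analysed, and groups and replicate numbers were taken from the library labels. The authors aligned trimmed 2x150 reads with STAR to GRCm38, featureCounts 1.6.2 counted them on exons, and the deposited raw counts hold whole reads per gene without normalization. Between 81.4% and 83.8% of the counts from 1 to 19 in a library were even, so both mates of a pair were treated as separate counts. RPKM values deposited by the authors are these counts divided by exon length and library total, and their tables of fold changes, p-values and FDR were not used. No value column belonged to another series (0 columns).

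The tests used edgeR 4.0.16 and DESeq2 1.42.0 under R 4.3.3. A gene was tested if its CPM exceeded 1 in 3 or more libraries (11950 of 53465), with TMM normalization. All libraries entered 1 quasi-likelihood fit, each group having its own mean, and a gene was called at a Benjamini-Hochberg FDR of at most 0.05 over all genes tested, with a fold change of 1.2 or more. The fit was tested first on simulated data with few changed genes and independent libraries. That simulation held neither the many changes nor the replicate 1 difference seen here. Libraries held 62017933 to 84314201 counted reads, so counting error was small for the 6 genes. The chi-square per gene between libraries of a group was at least 10.6, so no 2 libraries were alike within sampling noise. RPKM values were used without a test, to compare levels between genes per length.

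Deviations from the group means correlated between libraries with the same number in all 9 pairs (r from 0.276 to 0.484 across genes). Genes are not independent, and libraries with different numbers were not compared in this way. Deviations cancel out within a group, and replicate 1 stood apart in each group. The other libraries therefore tend to deviate together, so these correlations cannot show pairing by number beyond replicate 1. The block and the same-numbered differences assume that pairing. All values are from the fit without a block unless they are said to come from the block, which was an alternative. Leaving out replicate 1 of all groups was an alternative chosen after seeing the data.

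The 6 genes, the 8 pathway lists and the 8 marker lists were chosen with earlier results of these data known. Named genes are the 6 genes, in each list and comparison the called genes that rose most (2) and fell most (2), for each of the 6 genes the 3 with the highest Pearson r, and genes that overlap one of them. Some genes that this rule names are not reported here. Any other gene named was chosen after its values were seen. The further alternatives were edgeR's exact test, the Wald test of DESeq2, other scaling factors and filters, a fit of the 2 groups compared, counts divided by 2, other fold thresholds and each library left out in turn. Exons and coordinates came from a GENCODE annotation of GRCm38, and promoter windows from RefSeq on GRCm38.p6. Protein sequences were not analysed here.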

Additional observations from a re-analysis of the deposited data

Results flagged for a closer look

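The effects of PH-CM and CO-CM, each against UNX, differed for 5 of the 6 genes by the direct test between the 2 media. That test is the PH-CM against CO-CM comparison of the edgeR fit given above. It called 27.1% of all genes tested, 12.2% higher in PH-CM. The log2 difference was 1.86 for Fcgr4, 0.71 for Fcgr3, 0.67 for Fcgr2b, 0.53 for Fcgr1 and 0.30 for Syk, higher in PH-CM in 3 of 3 same-numbered pairs for each. Fcgr1 was the one gene of these with fitted changes of opposite sign, 0.38 in PH-CM and -0.15 in CO-CM against UNX, and the second was not called. Both media were compared with the same UNX libraries. Groups of 3 libraries were not tested for outliers.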

How the results depend on the processing

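Each fold change of the 6 genes was recomputed under 22 alternatives. Of 396 values, 372 kept their direction and their side of the threshold. The 4 that changed sign all belong to Fcer1g, which was never called. In CO-CM against UNX they were 0.015 with upper-quartile factors and 0.026 without CO-CM replicate 1, and in PH-CM against CO-CM 0.0097 without CO-CM replicate 3 and 0.016 without PH-CM replicate 1. With single libraries left out the 2 differences ranged from -0.129 to 0.026 and from -0.113 to 0.016. In the fit without a block the calls of Fcgr1 rest on single libraries, as given above. The replicate block added the call of Fcgr4 in CO-CM against UNX (0.30) and changed no other call of the 6 genes. Leaving out replicate 1 of all groups, chosen after seeing the data, likewise added that call alone.

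With a fold threshold of 2 the genes called fell from 5 to 3 of 6 in PH-CM against UNX, from 2 to 0 in CO-CM against UNX and from 5 to 1 in PH-CM against CO-CM, since fewer genes can pass it. Over all genes tested they fell from 7534 to 2153, from 6806 to 1655 and from 3244 to 612, and over the pathway lists from 73 to 20, from 64 to 9 and from 45 to 9. With single libraries left out, 4 to 5, 2 to 3 and 4 to 5 of the 6 genes were called. With 3 libraries a group, an exact permutation test of 1 gene cannot go below p = 0.1, so the calls rest on the spread pooled across genes in the fit. Depth is not the limit for these genes.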
